A study of Mus musculus with 2 samples.

Results

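Microexons are internal exons so short that they add only a few amino acids to a protein. The microexons described here are the internal exons of 3 to 30 bases carried by spliced transcript models of hearts taken from female mice of the strain B6CASTF1/J, a cross of C57BL/6J with CAST/EiJ, at 14 days of age. An exon was taken when it was read at least 1 time in each of 2 long-read RNA libraries, which form 1 group, replicates 1 and 2, with no treatment named in the labels. Models that matched an annotated transcript, joined known splice sites in a new way, or used a new splice site were counted, and exons were matched by chromosome, strand, start and end. The rule left 693 microexons in 590 genes, out of 102263 internal exons. The microexons were thus chosen by their read counts in both libraries, and the presence of reads is a description and not a finding. Biological replicate numbers are given in the labels, but separate animals are not clearly named, so the spread between them may be technical. Each p-value, and each interval of an inclusion, covers counting error only. Intervals of shares of exons treat each exon as independent, though 68 genes held 2 or more microexons and some exons share reads.

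An internal exon is recognised by the splice sites on either side of it, and a very short exon leaves little room between them, so many microexons depend on helper proteins that bind nearby. Microexons are best known from neurons, where the SRRM4 protein promotes them, and from muscle, where RBFOX, MBNL and other RNA-binding proteins act on them. A microexon whose length is a multiple of 3 can be kept or left out without moving the reading frame, whereas any other length shifts the frame of what follows. Long reads show the whole transcript, so the presence of a microexon and of its neighbours is seen on the same molecule.

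Several proteins of the heart's contractile and calcium machinery held microexons that were read in nearly every transcript. Their sequences are shown because, apart from Atp2a2, relatives in the same gene family carried an exon of the same length. The place of the exon within each gene was not compared. Letters are from GENCODE M21 transcripts on mm10, 5′ to 3′ on the gene's strand, with the microexon in capitals and 12 bases of the neighbouring exons in lower case on either side. Atp2a2 encodes the calcium pump of the sarcoplasmic reticulum, Myh6 the alpha myosin heavy chain and Myh9 a nonmuscle myosin heavy chain. Myl3 and Myl4 are the ventricular and atrial essential light chains of myosin, and Myl6 is the smooth muscle and nonmuscle one. Trim54, Trim55 and Trim63 are the muscle RING finger ubiquitin ligases of the sarcomere.
Atp2a2: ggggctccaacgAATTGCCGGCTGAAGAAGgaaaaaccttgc
Myh6: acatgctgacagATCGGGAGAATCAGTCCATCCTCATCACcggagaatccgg
Myh9: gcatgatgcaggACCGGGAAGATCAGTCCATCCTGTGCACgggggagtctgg
Myl3: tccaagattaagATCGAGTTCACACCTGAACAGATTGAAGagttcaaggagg
Myl4: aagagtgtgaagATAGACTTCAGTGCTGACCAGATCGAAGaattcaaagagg
Myl6: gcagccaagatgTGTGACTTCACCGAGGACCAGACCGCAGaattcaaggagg
Trim54: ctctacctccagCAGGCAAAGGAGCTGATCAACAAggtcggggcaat
Trim55: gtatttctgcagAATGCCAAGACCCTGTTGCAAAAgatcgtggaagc
Trim63: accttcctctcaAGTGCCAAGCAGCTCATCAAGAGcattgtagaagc

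Microexons that varied among transcripts of the same gene are shown next, because the values of inclusion and joint inclusion turn on them, together with those of 2 paralogues that were in every spanning read, Ppp3cc and Mark3. Ppp3ca, Ppp3cb and Ppp3cc encode the catalytic subunits of calcineurin, the calcium-activated phosphatase. Mef2a and Mef2d are transcription factors of muscle genes, Dctn1 is the large subunit of the dynein activator dynactin, and Anxa6 is a calcium-dependent membrane-binding protein. Tmed2 is a cargo receptor between the endoplasmic reticulum and the Golgi, Mark2 and Mark3 are kinases that act on microtubule-associated proteins, and Dnm2 is the membrane-severing GTPase dynamin 2, with 2 of these exons. In Dctn1 the annotated transcript shown shares 1 of its 2 neighbouring splice sites with most reads.
Ppp3ca: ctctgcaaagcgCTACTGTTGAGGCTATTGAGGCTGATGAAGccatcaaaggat
Ppp3cb: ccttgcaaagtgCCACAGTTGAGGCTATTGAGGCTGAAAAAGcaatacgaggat
Ppp3cc: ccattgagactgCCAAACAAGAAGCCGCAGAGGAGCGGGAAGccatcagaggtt
Mark2: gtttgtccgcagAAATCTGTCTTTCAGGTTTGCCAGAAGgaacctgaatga
Mark3: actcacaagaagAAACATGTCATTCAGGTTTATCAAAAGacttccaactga
Mef2a: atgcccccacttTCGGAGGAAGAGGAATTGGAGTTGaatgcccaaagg
Mef2d: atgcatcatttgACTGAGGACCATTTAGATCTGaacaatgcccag
Dctn1: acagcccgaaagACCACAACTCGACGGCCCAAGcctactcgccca
Anxa6: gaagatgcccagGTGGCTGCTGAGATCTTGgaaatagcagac
Tmed2: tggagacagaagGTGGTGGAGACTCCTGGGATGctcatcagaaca
Dnm2, 30 bases: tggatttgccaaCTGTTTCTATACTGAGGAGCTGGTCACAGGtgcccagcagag
Dnm2, 12 bases: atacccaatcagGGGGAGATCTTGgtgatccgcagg

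Replicate 1 held 896941 reads and replicate 2 held 972159, of which 759419 and 823684 lay on the models used. All 6 cardiomyocyte markers were read, summing to 46212 and 47245 CPM (a gene's reads scaled to a common library size, from totals of 858071 and 926560 reads), with Myh6 at 31035 ± 333 CPM (SD, n = 2). Markers of fibroblasts summed to 1554 and 1489 CPM, of smooth muscle to 350.8 and 312, of endothelium to 246 and 233, and of macrophages to 179 and 146. Neuron markers stood at 12.8 and 15.1 CPM over 8 genes, of which Snap25, Syt1, Tubb3 and Th were not read in either library, glia markers at 12.8 and 9.71, and skeletal muscle markers at 1.17 and 1.08. A gene with no read could have stood at up to 3.50 CPM in replicate 1 and 3.24 in replicate 2, the level of 3 reads. In bulk tissue, fewer cells of a type and less RNA per cell cannot be told apart.

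The microexons were 10 to 30 bases long, with a median of 27. The commonest lengths were 30 bases (131 microexons), 27 (126), 24 (71) and 28 (70), and none was shorter than 10. In all, 385 of 693 were divisible by 3 in length, or 55.6% (95% exact interval 51.8 to 59.3). GENCODE M21 held 640 of them exactly, of which 601 lay wholly in coding sequence, 16 spanned coding sequence and untranslated region (UTR), 11 lay in UTR and 12 in noncoding transcripts. At the edge of the rule, 45 microexons had 1 read in each library, while 183 exons of this size were read in replicate 1 alone, with at most 7 reads, and 216 in replicate 2 alone, with at most 4. Summed over microexons, reads came to 53905 in replicate 1 and 59344 in replicate 2, a read being counted for each microexon on it. The 28-base exon of Myh6 alone made up 36.8% of both sums together.

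**Figure D1:**
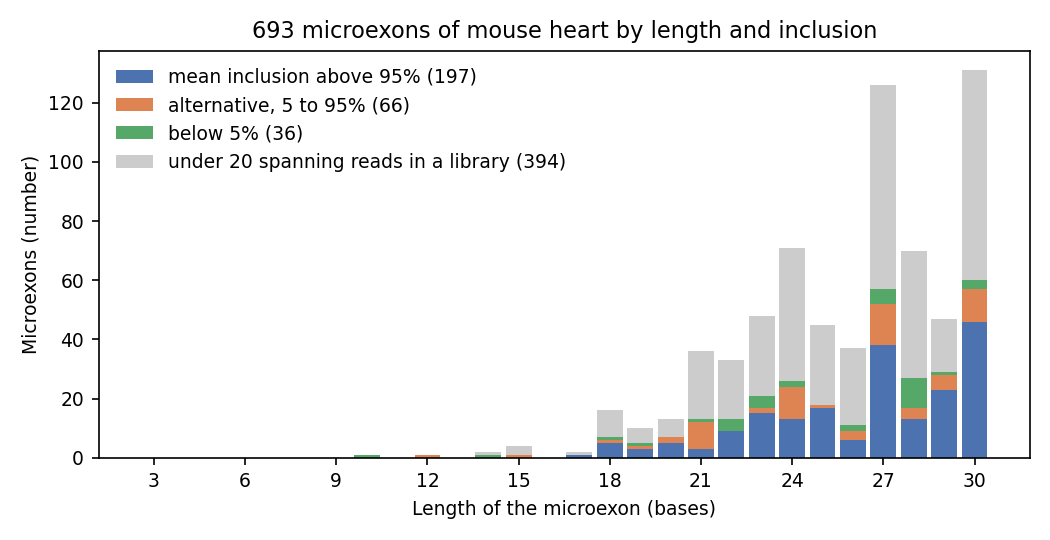
Microexons by length in bases (x axis) and number (y axis), coloured by mean inclusion over both libraries; grey microexons had under 20 spanning reads in a library. The columns at 27 and 30 bases are the tallest, with 126 and 131 microexons, and there is none under 10 bases.

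Inclusion was the percent of reads with the microexon among reads whose model held both flanking splice sites, called spanning reads. It could be judged from at least 20 spanning reads in each library for 299 microexons. Of these, 197 had a mean inclusion above 95%, and 137 of them were in every spanning read of both libraries. Another 66 microexons, in 62 genes, were alternative, at 5 to 95%, and 36 were below 5%. Since a microexon needed a read in each library to be taken, exons left out of every transcript are absent from these counts. The other 394 had too few spanning reads.

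Among the highly included microexons, that of Atp2a2 (18 bases, chr5:122500931-122500948, minus strand) was in 6123 of 6124 spanning reads of replicate 1 and in all 6599 of replicate 2. That is 99.99% ± 0.0115 (SD, n = 2) of reads with both neighbouring splice sites, and 91.9% of all reads of the gene that begin before and end after the exon. The 28-base microexon of Myh6 (chr14:54963380-54963407, minus strand) was in 19882 of 19892 reads and 21785 of 21797, or 99.95% ± 0.00338. Sugt1, a cochaperone of HSP90, had the shortest microexon of this class, 17 bases (chr14:79603470-79603486), in all 41 and all 49 spanning reads, with 95% exact intervals from 91.4% and from 92.7%. Sorbs2, an adaptor of the Z-disc, had a 27-base microexon in all 16 and all 20 spanning reads, below the depth set for a call.

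Families of paralogues, of muscle and of other tissues, held microexons of the same length. All 7 myosin heavy chain genes with a 28-base microexon in M21 (Myh6, Myh7, Myh7b, Myh9, Myh10, Myh11 and Myh14) had it begin at codon position 2. The Myh6 exon matched that of Myh9 at 22 of 28 bases and that of Myh7, the beta heavy chain, at all 28, so the exon letters alone cannot tell those neighbours apart. The other 6 were read 1 to 11 times in replicate 1 and 2 to 24 times in replicate 2, and no spanning read lacked the exon. A 28-base microexon stood likewise in the myosin light chains Myl1, Myl3, Myl4 and Myl6. Myl3 had it in 4584 of 4586 and 5648 of 5649 spanning reads, Myl4 in all 200 and all 188, and Myl6 in all 122 and all 169, and the Myl3 and Myl4 exons shared 21 of 28 bases. In 15 Trim genes a 23-base microexon began at codon position 1. Trim54 had it in 180 of 182 and 132 of 134 spanning reads, Trim55 in all 129 and 174 of 175, and Trim63 in all 219 and all 227, with 13 to 15 of 23 bases shared between any pair of these 3. A grouping by the leading letters of the gene symbol, made after the values had been seen, found 57 sets of 2 or more genes with a microexon of the same length, 146 genes in all. Lengths of 27 and 30 bases were common among all 693 microexons (126 and 131). How many such sets unrelated genes would give was not tested. A shared symbol stem is not proof of common descent, and some sets, such as Dctn1 and Dctn4 with 5 of 21 bases alike, had few bases in common.

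Some genes held several microexons. Trdn, triadin, which ties calsequestrin to the calcium release channel, held the most of any gene, 11 microexons of 18 to 30 bases. All 11 were multiples of 3 and began at codon position 2, and together they measured 291 bases. They were read 2 to 6 times in replicate 1 and 1 to 11 times in replicate 2, too few to judge inclusion. Collagen genes held 29 microexons in 8 genes, of which 27 were multiples of 3 and 23 multiples of 9, the length of 1 Gly-X-Y repeat of the collagen helix in bases, and 26 began at codon position 1. Col13a1 held 10 of them and Col18a1 6. Of the 29, 15 had enough spanning reads, among them the 27-base microexons of Col4a1, a basement membrane chain, in all 262 and 274 reads at chr8:11240041-11240067 and all 267 and 286 at chr8:11245058-11245084. Eln, elastin, held 3 microexons of 30 bases, each in at least 99.2% of spanning reads of each library.

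Alternative microexons were spread over the whole range. By mean inclusion, 11 stood above 80%, 15 at 50 to 80%, 18 at 20 to 50% and 22 under 20%. The share of alternative exons was 22.1% among microexons (66 of 299, 95% exact interval 17.5 to 27.2). It was 9.75% among exons of 31 to 60 bases (8.77 to 10.8), 6.97% at 61 to 100, 6.30% at 101 to 150, 8.64% at 151 to 300, and 17.7% at 301 or more (16.0 to 19.5), and 7.87% over all exons above 30 bases. The interval for microexons lies above those of the bins from 31 to 300 bases, with no test made. The median number of spanning reads over both libraries was 113 for microexons and for longer exons. Next to the limit of 30 bases, the share was 14.8%, 17.2% and 18.3% at 28, 29 and 30 bases, then 2.94%, 5.56% and 27.5% at 31, 32 and 33.

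**Figure D2:**
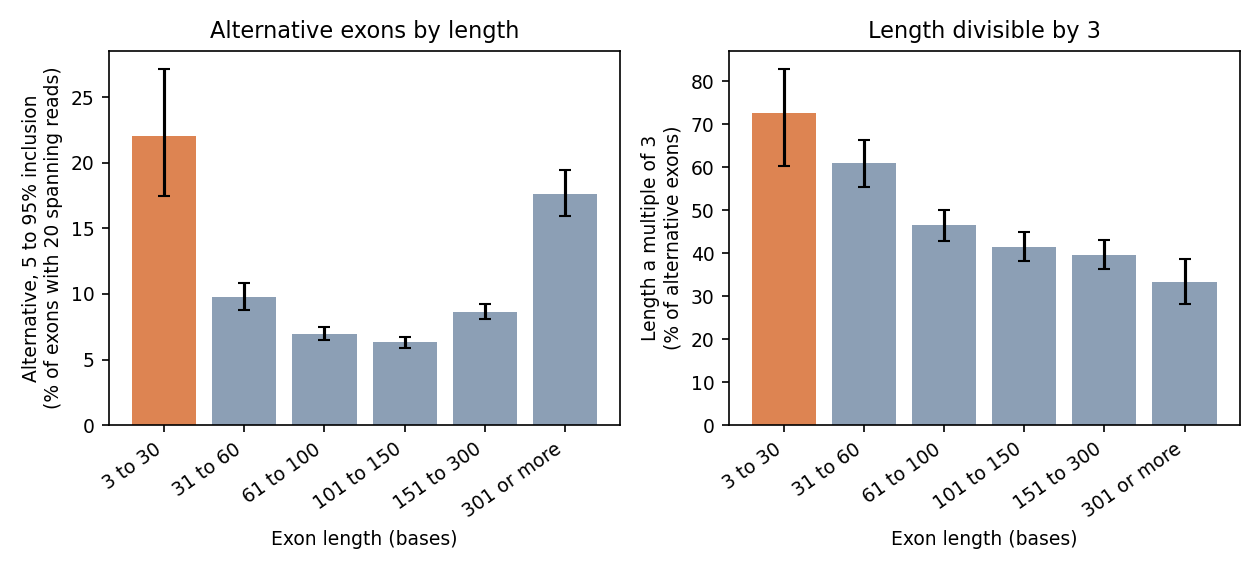
Left, percent of internal exons with at least 20 spanning reads in each library whose mean inclusion was 5 to 95%, by exon length in bases. Right, percent of those alternative exons with a length that is a multiple of 3. Bars are shares and whiskers 95% exact binomial intervals; microexons are in orange, at 22.1% and 72.7%.

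The share of lengths divisible by 3 differed among the inclusion classes, with no test made. Of the alternative microexons, 48 of 66 were multiples of 3, or 72.7% (60.4 to 83.0), against 105 of 197, 53.3% (46.1 to 60.4), of those above 95% and 12 of 36, 33.3% (18.6 to 51.0), of those below 5%. Among longer alternative exons the share was 61.0% at 31 to 60 bases (55.5 to 66.3) and 43.4% over all above 30. The neighbouring introns were longer around alternative microexons, with medians of 1310 bases upstream and 1901 downstream, than around those above 95%, with 928 and 704. Exons of 31 to 60 bases showed much the same, with 1414 and 1816 against 1086 and 933, and over all exons above 30 bases the medians were 1275 and 1256 against 1162 and 1036. In the exon letters, the last base was G in 84.2% of 57 annotated alternative microexons (72.1 to 92.5) and in 77.4% of 195 above 95% (70.9 to 83.1), beside 79.98% and 79.9% of the longer exons. The base at the start was G in 31.6% (19.9 to 45.2) and 43.6% (36.5 to 50.9) of these microexons, beside 39.6% and 50.3% of the longer exons. None of these shares was tested.

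Transcription factors and adhesion proteins of muscle held alternative microexons, each given here as mean ± SD over both libraries (n = 2). The 24-base microexon of Mef2a (chr7:67244521-67244544, minus strand) was in 51 of 74 and 79 of 101 spanning reads, 73.6% ± 6.58, and the 21-base microexon of Mef2d (chr3:88161781-88161801) in 21 of 32 and 15 of 24, 64.1% ± 2.21. Reads with and without the exon were thus found in both genes and both libraries, and for Mef2d the intervals included 50%. Ptk2, the focal adhesion kinase, had a 21-base microexon, annotated in a noncoding transcript, in 5 of 27 and 7 of 27, 22.2% ± 5.24, and an 18-base one in 2 of 2 spanning reads of each library, but in 7.41% of the 27 reads of each that pass over it. No microexon of Mef2c, Tead1, Ldb3, Tnnt2, Ptprf, Kif1b, Camk2d or Camk2g met the rule, which does not show that they are absent from heart. An annotated 9-base exon of Tnnt2 had 0 of 33 spanning reads in each library, but no exon under 10 bases met the rule in any gene.

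Signalling and metabolic enzymes followed. In Ppp3ca the 30-base microexon (chr3:136932011-136932040) was in 53 of 113 and 51 of 103 spanning reads, 48.2% ± 1.85. Ppp3cb, whose exon matched it at 26 of 30 bases, had it in 13 of 16 and 19 of 22. Its 16 reads in replicate 1 are below the depth set for a call. Ppp3cc, with 14 of 30 bases alike, had it in all 26 and all 31. A like contrast stood between Mark2, with its 27-base microexon in 13 of 36 and 21 of 64, 34.5% ± 2.33, and Mark3, with an exon alike at 21 of 27 bases, in all 98 and all 93. The paralogues were set side by side after their values had been seen and not tested. Acly, which makes cytosolic acetyl-CoA from citrate, had a 30-base microexon (chr11:100503160-100503189, minus strand) in 26 of 63 and 41 of 77, 47.3% ± 8.47. Arhgef10l, a guanine nucleotide exchange factor, had a 15-base one in 11 of 40 and 9 of 46, 23.5% ± 5.61.

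Other microexons nearest 50% were in Dctn1, Picalm, Gopc and Uso1. Dctn1 had its 21-base microexon (chr6:83187764-83187784) in 112 of 172 and 116 of 175 spanning reads, 65.7% ± 0.827. Picalm, a clathrin assembly protein, had a 24-base microexon in 15 of 31 and 6 of 21, 38.5% ± 14.0, Gopc, a Golgi PDZ protein, a 24-base one in 9 of 25 and 16 of 41, 37.5% ± 2.14, and Uso1, a vesicle tether, an unannotated 21-base one in 15 of 37 and 12 of 38, 36.1% ± 6.34. The microexons with the most spanning reads in this class, chosen after their values were seen, were those of Tmed2 (21 bases, chr5:124543487-124543507), in 426 of 583 and 405 of 565 reads, 72.4% ± 0.982, and Anxa6 (18 bases, chr11:54987051-54987068, minus strand), in 277 of 403 and 302 of 424, 70.0% ± 1.76. Both libraries gave nearly the same share in each of these well covered genes. Of the remaining genes nearest 50%, Pecam1, an adhesion protein of endothelium, had a 23-base microexon in 12 of 35 and 20 of 41, 41.5% ± 10.2. Fbxo25, a ubiquitin ligase subunit, had a 27-base one in 12 of 23 and 22 of 31, 61.6% ± 13.3. Over annotated models alone the Fbxo25 value was 16.2%, from 8 and 10 spanning reads, below the depth set for a call. The RNA-binding protein gene Hnrnpc had a 26-base one in its UTR in 33 of 56 and 28 of 54, 55.4% ± 5.004, or 83.4% over annotated models alone. The Pecam1 length is no multiple of 3, so its forms differ in frame after the exon.

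Reads that lacked an alternative microexon mostly joined its neighbours directly, in 76.0% of 2854 such reads in replicate 1 and 79.1% of 2913 in replicate 2. An exon overlapping the microexon took its place in 17.5% and 15.6%, and another exon in 6.48% and 5.32%. Direct skipping was the commonest way for 52 of the 66 microexons, an overlapping exon for 13 and another exon for 1, that of Rilpl1, a regulator of ciliary protein transport, where another exon stood in 179 and 146 reads and the 24-base microexon in 14 and 20. In Art3, an ADP-ribosyltransferase family gene, 2 overlapping microexons differed by a shift of 4 bases at the acceptor: the 30-base form had 206 of 249 and 154 of 204 spanning reads and the unannotated 26-base form 23 and 26. Wdr61 had a like pair of 28 and 23 bases. These 2 pairs account for the 4 alternative microexons that overlap another, and they share reads.

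No microexon was called different between the libraries. Fisher's exact test of included and skipping reads, over 3205 alternative internal exons of every length with Benjamini-Hochberg adjustment, called 7 exons (0.218%), and 0 of the 66 microexons. At an unadjusted p under 0.05 stood 133 exons (4.15%) and 1 microexon, the 27-base exon of Mia2, a protein of endoplasmic reticulum export, at 65.5% of 58 reads and 84.2% of 57 (two-sided Fisher's exact p = 0.0310, adjusted p = 1). The median absolute difference was 4.51 percentage points over the microexons and 4.61 over all exons tested, and the largest over microexons was 19.8. The 95% intervals of both libraries overlapped for all 66. A p that misses the threshold does not show equal inclusion: with 32 and 24 reads in Mef2d, the intervals ran from 46.8 to 81.4% and from 40.6 to 81.2%.

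**Figure D3:**
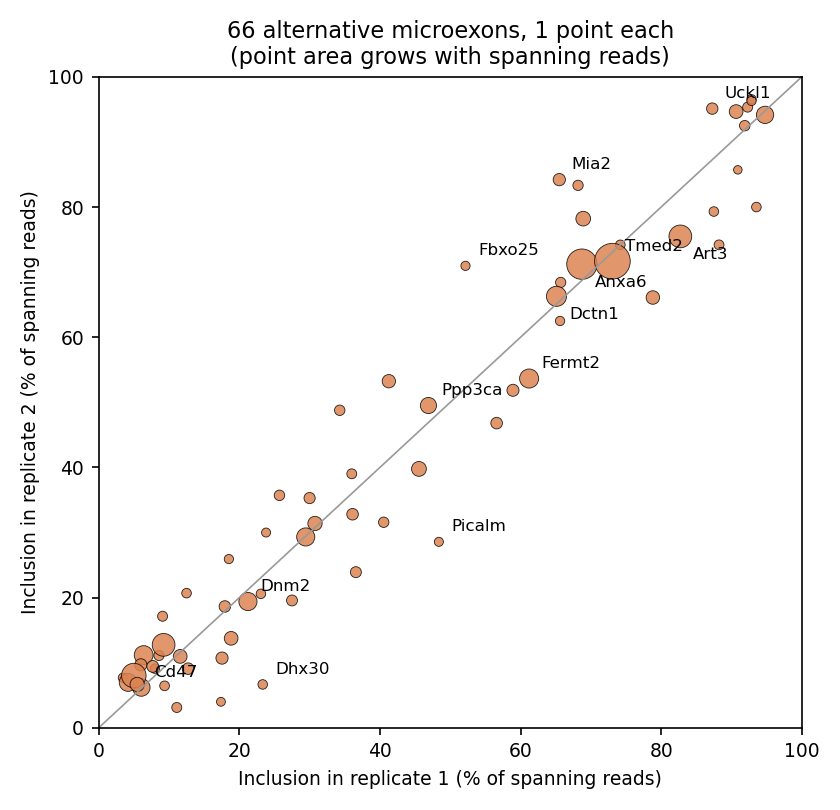
Inclusion of the 66 alternative microexons in replicate 1 (x axis) and replicate 2 (y axis), in percent of spanning reads, 1 point per microexon with area growing with spanning reads; the line marks equal values. Points with many reads, such as Tmed2 and Dctn1, lie near the line, and the farthest ones, such as Picalm, Mia2 and Fbxo25, have under 60 reads in each library.

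Full-length reads showed whether a microexon was joined to another alternative exon of the gene. Of 2131 pairs of alternative exons tested by Fisher's exact test within each library, 68 (3.19%) were called in both with the same direction (adjusted p under 0.05). Of the 98 pairs that held a microexon, in 37 genes, 6 were called (6.12%), in Fermt2, Dnm2 and Uckl1. These pairs share reads within a gene and are not independent of each other.

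Fermt2, kindlin-2, an activator of integrins at the attachments of heart muscle cells, carried 3 short exons in a row (mm10, minus strand): an annotated one of 33 bases (chr14:45476418-45476450), then microexons of 24 bases (chr14:45463246-45463269) and 21 bases (chr14:45462715-45462735), neither of them in M21. Over reads that span all 3, none was present in 46 of 146 reads of replicate 1 and 60 of 165 of replicate 2. The 33- and 21-base exons alone stood together in 48 and 52 reads, all 3 in 41 and 35, the 33-base exon by itself in 10 and 17, and the 21-base exon by itself in 1 and 1. The 33- and 21-base exons were thus both present or both absent in most reads. The 24-base exon was never read without the 21-base one (adjusted p = 2.2e-09 in replicate 1 and 5.6e-10 in replicate 2), and the 21-base one was in 89.9% and 83.7% of reads with the 33-base exon against 2.13% and 1.64% of those without it (adjusted p = 1.3e-24 and 9.9e-26). Over reads that span each exon, the 21-base microexon was in 57.3% and the 24-base one in 24.6% (means of both libraries). When the neighbouring splice sites are required, the 24-base value rises to 42.7% ± 4.09 (SD, n = 2), since its downstream neighbour is the 21-base microexon.

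Dnm2 had 2 alternative microexons, of 30 bases (chr9:21487047-21487076) and 12 bases (chr9:21490658-21490669), the latter the shortest alternative one in these data. The 30-base exon was in 43 of 146 and 39 of 133 spanning reads, 29.4% ± 0.0910, and the 12-base exon in 31 of 146 and 26 of 134, 20.3% ± 1.29 (SD, n = 2). Over annotated models alone the 12-base value was 41.8%. They never stood on the same read, in 0 of 146 and 0 of 134 reads that cover both, which allows a share of up to 3 reads in each (adjusted p = 0.00035 and 0.0022). Further upstream, Dnm2 has 2 alternative exons of 139 bases, of which nearly every read held a single one. The 30-base microexon was in 19.0% and 17.3% of reads with the upstream 139-base exon and in 43.5% and 44.1% of reads without it (adjusted p = 0.041 and 0.025). That pair was not called when exons with at least 10 spanning reads were tested, at an adjusted p of 0.071. The downstream 139-base exon and the 30-base microexon were not called as a pair (Fisher's exact test, adjusted p = 0.065 and 0.015). There the microexon was in 42.9% and 44.3% of reads with the downstream exon, against 19.3% and 16.4% without it. The commonest form had the upstream 139-base exon and neither microexon, in 31.5% and 31.3% of reads.

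**Figure D4:**
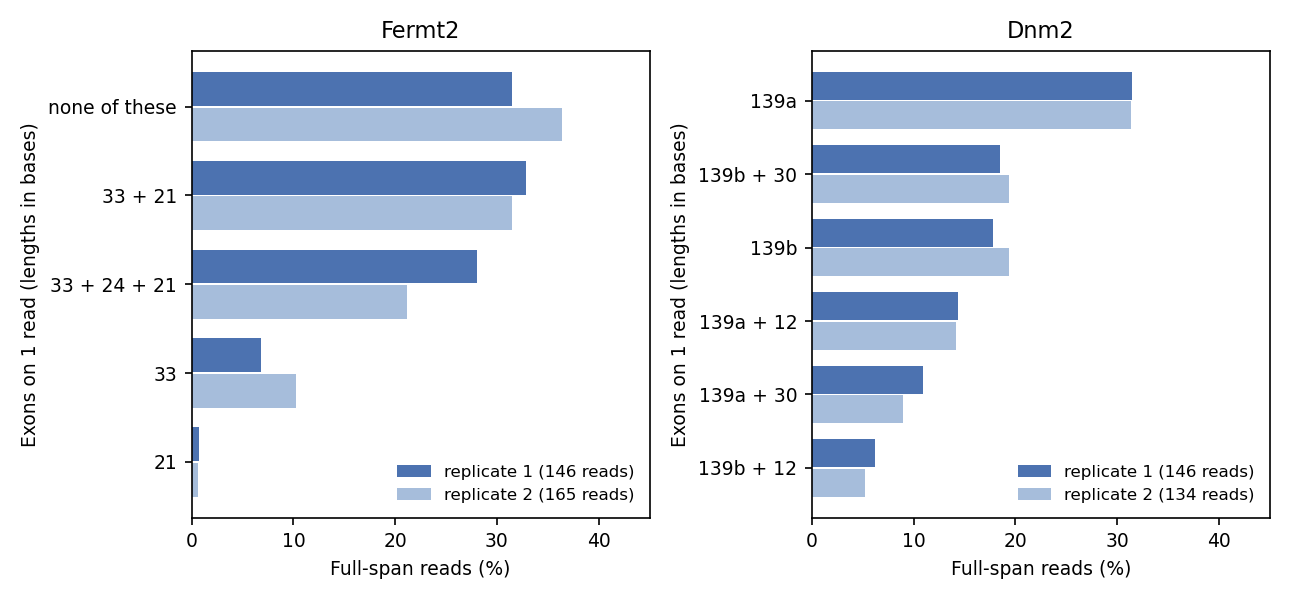
Percent of full-span reads (x axis) with each combination of alternative exons (y axis, exon lengths in bases) in Fermt2 and Dnm2, by library. In Dnm2, 139a and 139b are the upstream and downstream 139-base exons; combinations with 1 read in all are not drawn. In Fermt2 no bar has the 24-base exon without the 21-base one, and in Dnm2 none has the 30- and 12-base exons together.

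In Uckl1, related to uridine-cytidine kinases, an unannotated 20-base microexon (chr2:181571238-181571257, minus strand) and an unannotated 75-base exon were never on the same read: 48 and 39 reads had the microexon alone, 17 and 17 the longer exon alone, and 8 and 5 neither (adjusted p = 5.0e-09 and 4.1e-09).

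Outside the annotation, 53 microexons were not in M21, of which 36 used 1 annotated splice site and 17 none. Inside a longer annotated exon lay 37 of them, and 14 overlapped no annotated exon. Most had few reads: 39 of 53 had under 5 in each library and 10 had at least 10 in each. Of 34 with enough spanning reads, 23 were below 5% inclusion, 9 were alternative and 2 above 95%. Those 2 are a 25-base exon of Ptcd3, a mitochondrial translation protein, in all 122 and all 116 spanning reads (chr6:71889341-71889365), and a 24-base exon of Fhod3, a sarcomere-organising formin, in all 81 and all 76. Abundant genes gave rare ones: a 22-base exon of Myh6 in 19 of 19179 and 19 of 21127 reads, 0.0945%, further Myh6 exons of 27 and 30 bases in at most 2 spanning reads of each library, a 27-base exon of the troponin C gene Tnnc1 in 4 of 4641 and 4 of 6049, 0.0762%, and a 10-base exon of the collagen gene Col3a1, the shortest of all, in 0 of 3700 and 1 of 3967 spanning reads. Ccnl2, a cyclin of splicing-linked kinases, had an unannotated 14-base exon in 0 of 32 and 3 of 47. Their letters are not shown.

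The annotation also shows which microexons the reads lacked. M21 lists 2827 internal exons of 3 to 30 bases, and for 415 of them both annotated neighbours were held by at least 20 reads in each library. Of these, 262 were read in both libraries and 140 in neither. The share with no read rose as length fell, from 9.34% at 27 to 30 bases to 33.1% at 21 to 26, 66.1% at 15 to 20, 19 of 20 exons at 10 to 14, and all 21 at 3 to 9 bases. Some of the annotated exons with no read lay in heart genes with great depth, such as a 9-base exon of Casq2, calsequestrin 2, with 0 of 1216 and 0 of 1331 spanning reads. That exon is in 1 of 4 annotated transcripts with its neighbours. As no exon under 10 bases met the rule, these counts set no upper bound on its share.

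**Figure D5:**
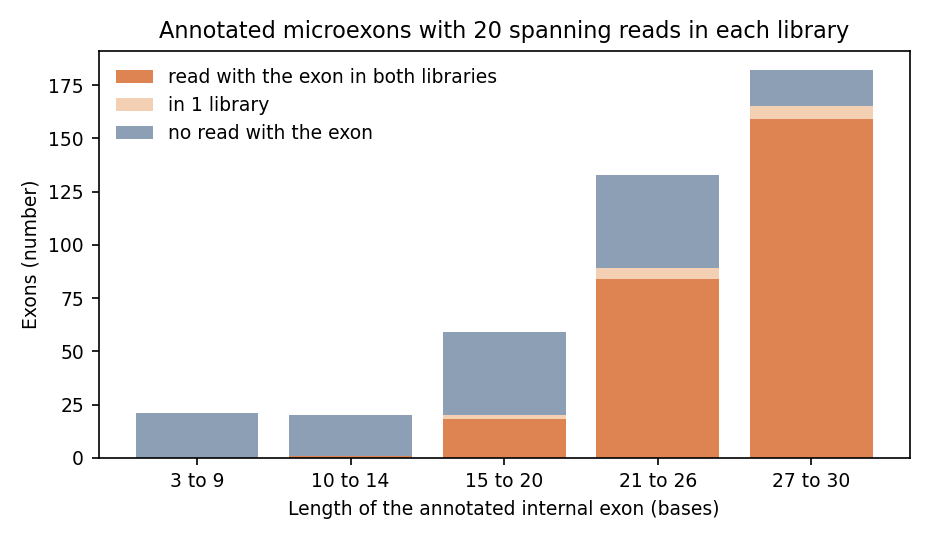
Annotated internal exons of M21 with at least 20 spanning reads in each library (y axis, number) by length in bases (x axis). Orange exons were read in both libraries and grey-blue ones in neither; none of the 21 exons of 3 to 9 bases was read.

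For the shortest exons the absence extends to exons that the annotation never skips. Of the 415, 174 are in every annotated transcript that holds their neighbours, and 167 of those had a mean inclusion above 95%. The 3 with no read were the 3 shortest, 3, 3 and 8 bases long, and all 171 of 15 bases or more were read. Exons of 10 to 14 bases gave no such check, as none of them is in every annotated transcript. Their letters are given with 12 neighbouring bases on either side, in the same layout, since a gap of this kind in the models cannot be told apart from skipping in the heart. Mybpc3 is the cardiac myosin-binding protein C, whose 3-base exon (chr2:91124275-91124277) was in 0 of 96 and 0 of 102 spanning reads. Map4k5, a kinase of stress signalling, had 0 of 36 and 0 of 29 (chr12:69820940-69820942, minus strand), and Pitpnc1, a phosphatidylinositol transfer protein, 0 of 28 and 0 of 23 (chr11:107320793-107320800, minus strand).
Mybpc3: gatgagtggcagCAAgtacatcttcga
Map4k5: tgtcattatcagAAGgaaaaacctttc
Pitpnc1: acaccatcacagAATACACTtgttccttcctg

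Of 50 genes with microexons described in nervous system or muscle, 11 held a member. Beside them, 505 of all 9433 genes with at least 10 reads held one. The 50 were not filtered by reads and were listed with earlier results of these data known. The shares are thus not like for like and were not tested. Only 6 of the 50 had a microexon with at least 20 spanning reads in each library, and all 6 held an alternative one. Over all microexons of that depth, 66 of 299 were alternative, a share of microexons and not of genes. Among the 6 genes were Mef2a, Mef2d, Ptk2, Dctn1 and Clasp1. Clasp1, a microtubule-end protein, had a 24-base microexon in 29 of 31 and 24 of 30 spanning reads. Several annotated microexons of these genes were not read although their neighbours were, among them a 24-base exon of Mef2c (0 of 22 and 0 of 26), an 18-base exon of the motor gene Kif1b (0 of 29 and 0 of 40), a 21-base exon of the scaffold gene Dlg1 (0 of 31 and 0 of 25) and a 15-base exon of Dctn1 (0 of 167 and 0 of 175). With so few reads, a count of 0 still allows shares of up to 13.6% for Mef2c and 10.3% for Kif1b in replicate 1, the level of 3 reads.

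Of 25 splicing regulators, 18 had at least 3 reads in each library, summing to 1681 and 1687 CPM over the list. The highest means were those of Qk at 317 ± 38.3 CPM, Rbm38 at 317 ± 39.4, Rbm24 at 282 ± 10.5 and Mbnl2 at 225 ± 1.13 (SD, n = 2). Rbm20 followed at 119 ± 18.1, while Mbnl1 stood at 36.4 ± 0.401 and Celf1 at 18.9 ± 5.31. The neural microexon activators Srrm4 and Srrm3 had 3 and 1 reads in replicate 1 and 0 and 0 in replicate 2, at or under the level of 3 reads that a count of 0 allows. Rbfox1 had 9 and 8 reads and Rbfox2 14 and 21. An exact binomial test of reads per gene, adjusted over 9433 genes, called 162 (1.72%) between the libraries and 0 of the 18 regulators tested, 2 of which had an unadjusted p under 0.05. Of the genes that hold a microexon, 505 were tested and 7 called (1.39%), 4 higher and 3 lower in replicate 2. Of the 6 cardiomyocyte markers, 4 were called. Among the 7 genes, Axl, a receptor tyrosine kinase, had 118 and 71 reads, with its 27-base microexon in 67 of 85 and 39 of 59 spanning reads.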

How the data were processed

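Per the labels, the libraries are long-read RNA-seq of total RNA from heart, aligned to mm10. Per the text deposited with each library, models and quantifications used GENCODE M21, and per the file headers the models are TALON's. The deposited unit is the whole-number count of reads per model, made by the authors 1 library at a time. Neither aligner nor settings are given in the sources used here, although the mapping of very short exons depends on them. From these counts, models were matched by exon structure, gaps under 30 bases (none occurred) were not counted as introns, and inclusion was taken from models holding both flanking splice sites with the most reads. Tests were Fisher's exact (Python 3.11.15, scipy 1.17.1), exact binomial for genes with at least 10 reads, and Benjamini-Hochberg at 0.05, each checked on simulated data; intervals are exact Clopper-Pearson at 95%. TMM totals came from edgeR 4.0.16 in R 4.3.3, as an alternative. Named by rule were the 14 alternative microexons nearest 50%, the 6 with the most spanning reads, the 5 shortest, those in called pairs, and those of 13 muscle genes. Others named were chosen after their values were seen. The members and lists were chosen with earlier results of these data known. No genome was used, so introns and unannotated exons have no letters here. Reads of both parental alleles were counted together. A microexon that the naming rule selects is not reported here.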

Additional observations from a re-analysis of the deposited data

Results flagged for a closer look

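Microexons carried only by models that match part of an annotated transcript were left out of the counts above. There were 10 with a read in each library, and 1 of them had more than 3 reads in each: a 23-base exon of Cmya5, myospryn, a protein of the Z-disc region (chr13:93081184-93081206), with 27 reads in replicate 1 and 24 in replicate 2, above the 3 reads that a count of 0 allows. Models in the antisense, intergenic and genomic classes held none.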

How the results depend on the processing

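The number of microexons, 693, was within 1.5 times of itself under every alternative tried except a longest length of 27 bases, which left 445; with the reads of 1 library alone it was 876 and 909. The number of alternative microexons, 66, became 28 with at least 50 spanning reads and 22 with annotated models alone. It was 105 with every model that begins upstream and ends downstream counted as spanning, and 71 and 75 in 1 library alone. With at least 10 spanning reads it was 91, which holds all 66 by construction. The share divisible by 3 stayed at 72.5 to 75% in each of its 3 alternatives. No microexon was called between the libraries under any of 5 alternatives; over exons of all lengths the 7 calls became 2 with at least 50 spanning reads, 0 with annotated models alone and 0 with incomplete models added, and the cause was not tested. The 6 called pairs were 5 to 7 under other depths and models, and 6 and 8 when called in 1 library alone. With at least 10 spanning reads, the Dnm2 pair of the 139- and 30-base exons had an adjusted p of 0.071. Genes called, 162, became 163 with TMM totals and 143 with no minimum. Of 31 named microexons, 9 moved by more than 1 SD when every overlapping model was counted, 8 with annotated models alone, which gave no value for 17, and 1 with incomplete models added. Among moves of more than 1 SD, those over 1.5 times were the 24-base Fermt2 exon (24.6%) and the 18-base Ptk2 exon (7.41%) with every overlapping model. With annotated models alone they were Hnrnpc (83.4%), Fbxo25 (16.2%, from 8 and 10 spanning reads) and the 12-base Dnm2 exon (41.8%). The rare 27- and 30-base Myh6 exons and the Col3a1 exon also changed over 1.5 times with every overlapping model, but within 1 SD. Uckl1 went from 91.2% to 64.8% with every overlapping model. No result reversed. No paired analysis was possible because there is 1 group. Depth limits 394 microexons with under 20 spanning reads in a library.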
